A study of Mus with 3 samples.

Results

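The genes described here are 9 components of the cytotoxic programme of lymphocytes: the granzymes Gzma, Gzmb, Gzmk and Gzmm, the pore-forming protein perforin (Prf1), the granule membrane protein Nkg7, Fas ligand (Fasl), interferon gamma (Ifng) and the CD94 receptor chain Klrd1. They were chosen by symbol, and each symbol matched 1 of the 27998 gene rows of the deposited matrices. Whole lungs of female mice aged 6 to 12 weeks were profiled with droplet single-cell RNA sequencing that reads the 3′ end of transcripts and counts molecules by unique molecular identifiers (UMIs). The control group, WT PBS, held wild-type animals that received PBS. WT OVA held wild types that received ovalbumin, an allergen used to model asthma, and in the DJ-1 KO OVA group the animals lacked DJ-1 and received ovalbumin as well. Cells of 3 mice were pooled into 1 library for each group, and no knockout library given PBS was analysed here. With 1 library per group no test between groups was possible. Every interval below is a 95% interval that covers counting error only, not the spread between mice. The sample title of the WT PBS library speaks of challenge with ovalbumin while its treatment label says PBS, and the treatment label was followed.

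Killer lymphocytes store granzymes, which are serine proteases, together with perforin in secretory granules. On contact with a target cell the granules are released, perforin opens the target's membrane, and the granzymes enter and cleave proteins that lead to cell death. Fas ligand offers a second route to death through the Fas receptor, and interferon gamma, an antiviral and macrophage-activating cytokine, is secreted by the same cells. Natural killer (NK) cells hold transcripts for many of these products before activation, whereas CD8 T cells acquire them after activation and most CD4 T cells lack them.

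In the GRCm38 assembly the genes, all annotated as protein coding, lie apart from each other except for a pair on chromosome 13. There Gzma spans bases 113093824 to 113100981 and Gzmk bases 113171630 to 113180965, 70.6 kb apart with no protein-coding gene annotated between them. Chromosome 10 carries 3 of the genes far from each other, with Prf1 at 61297751 to 61304684, Gzmm at 79689020 to 79695261 and Ifng at 118441046 to 118445894. Gzmb is at 56258836 to 56262334 on chromosome 14 and Nkg7 at 43437138 to 43438246 on chromosome 7. Fasl is at 161780691 to 161788495 on chromosome 1 and Klrd1 at 129588092 to 129598775 on chromosome 6.

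The libraries held 4556, 6406 and 4666 cell barcodes (from WT PBS through WT OVA to DJ-1 KO OVA, the order used for all series of values below), of which 3855, 5930 and 4438 cells were kept. Depth differed, with median UMI counts per kept cell of 4093, 2060.5 and 1653. WT PBS and DJ-1 KO OVA shared 372 barcodes, against 6 shared by WT PBS and WT OVA and 5 shared by WT OVA and DJ-1 KO OVA. The lower-UMI cell of each of the 372 shared barcodes was left out. Park7, the gene for DJ-1, was read at 157, 109 and 8.95 CPM (UMIs of the gene for every 1000000 UMIs of the class) in NK-like cells, so its low level in the knockout library went with the label. A thymocyte-like class, led by Rag1 and Dntt, made up 0.86%, 0.24% and 21.3% of the kept cells. It was kept apart from the T cell classes below, in which Rag1 was at most at 3.94 CPM.

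Cells were clustered without the 9 genes, so that their own levels did not choose the cells. NK-like cells, named from markers such as Ncr1, Klrb1c and Eomes, numbered 472, 608 and 301, or 12.2%, 10.3% and 6.78% of the kept cells. T-like cells were divided by UMIs of the coreceptor genes Cd4, Cd8a and Cd8b1 into CD8 T-like cells (287, 390 and 236) and CD4 T-like cells (301, 314 and 237). T-like cells with no coreceptor UMI numbered 240, 674 and 611 and were kept in a class of their own, which was larger in the shallower libraries. Ncr1 was at 294, 267 and 193 CPM in the NK-like class. Cd8a was at 368, 484 and 535 CPM in the CD8 T-like class, and Cd4 at 358, 624 and 691 CPM in the CD4 T-like class. These genes took part in drawing the classes, so their levels are no check on the labels. Of 9 markers of alveolar macrophages, which these lymphocytes should lack, 4, 3 and 4 were at 0 in the NK-like class and all summed to 7.81, 77.8 and 428 CPM. The sums were 5.65, 88.6 and 427 CPM in CD8 T-like cells and 43.8, 94.6 and 387 CPM in CD4 T-like cells, highest in the knockout library in each class. Their part in the values below was not tested, and B cell-like cells are given as a measure of the background for the 9 genes.

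For 7 of the 9 genes NK-like cells held most of the UMIs in both wild-type libraries and a smaller share in the knockout library. NK-like cells held 83.5%, 82.6% and 67.5% of all Gzma UMIs of the kept cells. For Prf1 the shares were 86.2%, 81.2% and 75.2%, and for Gzmb 79.6%, 75.8% and 62.2%. Nkg7 (70.7%, 66.4% and 46.6%), Fasl (68.3%, 62.6% and 42.1%), Ifng (61.3%, 61.1% and 34.5%) and Klrd1 (60.2%, 55.3% and 44.8%) followed the same order of libraries. Gzmk and Gzmm were divided differently. NK-like cells held only 8.33%, 5.88% and 9.41% of the Gzmk UMIs, while CD8 T-like cells held 32.6%, 45.6% and 25.9% and a class of cycling lymphoid cells 31.8%, 14.7% and 27.1%. Of Gzmm, CD8 T-like cells held 30.2%, 49.3% and 26.2% and NK-like cells at most 24.5%, the share in WT PBS. These shares move with the number of cells in each class as well as with the level per cell.

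**Figure D1:**
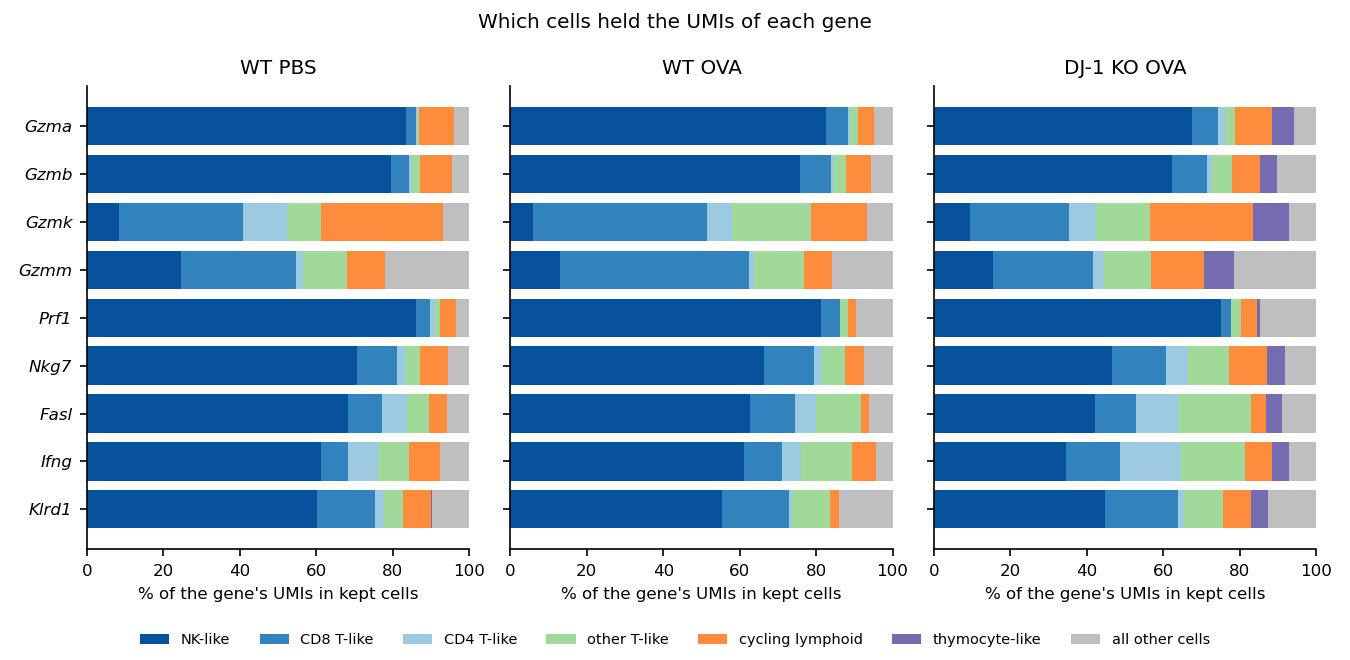
Share of each gene's UMIs, in percent of the UMIs in kept cells (x axis), that fell in each class of cells, with 1 bar per gene and 1 panel per library. NK-like cells hold most UMIs of 7 of the genes in WT PBS and WT OVA, whereas for Nkg7, Fasl, Ifng and Klrd1 their share is under 50% in DJ-1 KO OVA, and Gzmk and Gzmm lie mainly outside NK-like cells.

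Relative to the UMIs of a class, 7 of the 9 genes were higher in NK-like than in CD8 T-like cells in each of the 3 libraries, with intervals above 1. The ratio of the NK-like to the CD8 T-like level was 23.2, 10.7 and 8.81 for Gzma and 12.8, 7.13 and 6.03 for Gzmb. For Prf1 it was 17.1, 12.1 and 26.7, the last with an interval from 8.83 to 132 because the knockout CD8 T-like cells held 3 Prf1 UMIs in all. Nkg7 (4.95, 3.85 and 2.99), Fasl (5.62, 3.92 and 3.53), Ifng (6.36, 4.63 and 2.22) and Klrd1 (2.91, 2.38 and 2.15) differed less. Gzmk went the other way, with NK-like levels 0.187, 0.0966 and 0.331 of the CD8 T-like levels. Gzmm did so too at 0.595, 0.198 and 0.535, the last with an interval from 0.219 to 1.24 that holds 1. The CD8 T-like class is mixed, with 61.7%, 43.6% and 39.4% of it in a sub-cluster led by Dapl1, a gene of resting CD8 T cells. In its sub-cluster led by Ccl5, Gzma was at 2373, 2305 and 2946 CPM, below NK-like cells. Fasl was at 246, 280 and 347 CPM there, against 303, 351 and 417 CPM in NK-like cells. Ifng was at 56.1, 50.9 and 90.4 CPM, against 99.7, 81.1 and 69.8 CPM.

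CD8 T-like cells in turn exceeded CD4 T-like cells in Gzma, by 10.7, 8.20 and 4.32 times, in Nkg7, by 4.51, 4.36 and 2.60 times, and in Klrd1, by 5.52, 14.6 and 12.9 times. Fasl and Ifng did not separate these neighbours in the order. The CD8 T-like over CD4 T-like ratio of Fasl was 1.21 (0.868 to 1.70), 1.76 (1.18 to 2.69) and 1.06 (0.731 to 1.55), with only WT OVA clear of 1. For Ifng the ratios were 0.807, 1.55 and 0.945, each with an interval that holds 1. In B cell-like cells Gzma was at 14.6, 6.79 and 7.58 CPM, and 7 of the other genes were at 5.1 CPM or less in each library. Nkg7 was at 18.0 CPM in WT PBS B cell-like cells, where 1 cell held 33 of its 37 UMIs.

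**Figure D2:**
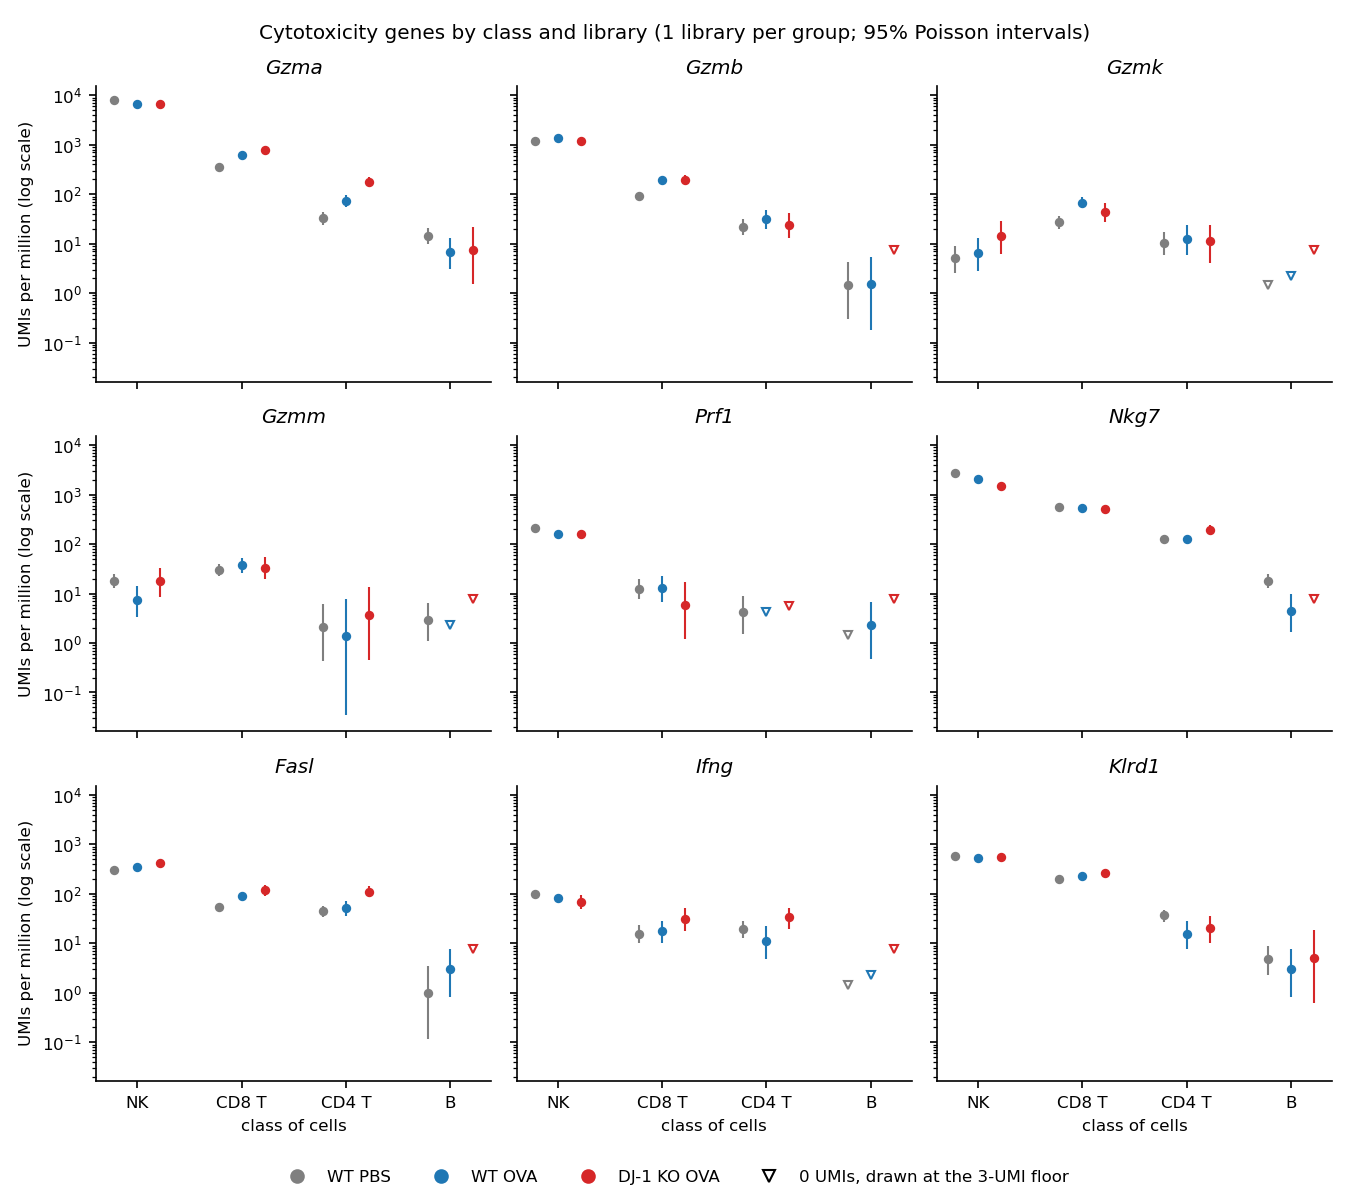
Level of each gene in CPM (y axis, log scale) in NK-like, CD8 T-like, CD4 T-like and B cell-like cells, with 1 point per library and bars for the 95% Poisson interval. Open triangles mark 0 UMIs and are drawn at the floor of 3 UMIs; the order NK, CD8 T, CD4 T, B is seen for Gzma, Gzmb, Nkg7 and Klrd1 in each library, while Gzmk and Gzmm are highest in CD8 T-like cells.

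NK-like cells of the challenged wild-type lung carried somewhat less Gzma, Prf1 and Nkg7 and somewhat more Gzmb and Fasl than those of the PBS lung, and none of these differences reached 1.5-fold. Gzma was at 8145 CPM in WT PBS (17722 UMIs) and 6585 CPM in WT OVA (8040 UMIs), a ratio of 0.808 with an interval from 0.787 to 0.830. Prf1 stood at 215 and 159 CPM, a ratio of 0.739 (0.622 to 0.875), and Nkg7, which takes part in granule release, at 2791 and 2083 CPM, a ratio of 0.746 (0.712 to 0.782). Gzmb, the granzyme that cuts after aspartate and activates caspases, was at 1188 and 1382 CPM, a ratio of 1.16 (1.09 to 1.24).

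The remaining products of the NK-like cells showed small differences between WT PBS and WT OVA. Fasl was at 303 and 351 CPM, a ratio of 1.16 (1.02 to 1.31), and Klrd1, which pairs with NKG2 chains to read Qa-1 on other cells, at 592 and 538 CPM, a ratio of 0.908 (0.826 to 0.999). Ifng was at 99.7 and 81.1 CPM, a ratio of 0.813 whose interval from 0.634 to 1.04 holds 1. Gzmm was the only one past 1.5-fold, with 39 UMIs against 9 (17.9 and 7.37 CPM), a ratio of 0.411 (0.175 to 0.863) that moved to 0.160 when cells were thinned to 1000 UMIs. Gzmk was near the floor with 11 and 8 UMIs and was not counted. Thus 0 of 8 counted genes were past 1.5-fold higher and 1 of 8 lower, in a class where 11.0% of 8516 genes were higher by that measure and 9.26% lower.

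Those NK-like values mixed 2 sub-clusters whose balance differed between the libraries. The sub-cluster led by Gzmb, Gzma and the chymase gene Cma1 made up 49.2%, 63.7% and 63.1% of the NK-like cells, and the sub-cluster led by the chemokine gene Xcl1 made up the rest. The Cma1 sub-cluster carried more granule product for its UMIs in each library. Gzma was at 12118, 8573 and 9101 CPM there and at 5834, 4517 and 4423 CPM in the Xcl1 sub-cluster, and Gzmb at 2138, 2105 and 1841 CPM against 636, 630 and 517 CPM. Prf1 was at 380, 230 and 215 CPM in the Cma1 sub-cluster. These sub-clusters come from the same cells, so their difference is a description and not a test.

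Within the sub-clusters the wild-type difference in Gzma was larger than in the whole class, and the one in Gzmb was smaller. The WT OVA over WT PBS ratio of Gzma was 0.708 (0.684 to 0.732) in the Cma1 sub-cluster and 0.774 (0.741 to 0.809) in the Xcl1 sub-cluster. The same ratio of Gzmb was 0.984 (0.915 to 1.06) and 0.990 (0.875 to 1.12). Prf1 was at 0.605 (0.492 to 0.740) and 0.715 (0.511 to 0.984), and Nkg7 at 0.695 and 0.694. Of the genes with enough UMIs, 1 of 7 in the Cma1 sub-cluster (Prf1) and 1 of 8 in the Xcl1 sub-cluster (Gzmm) were past 1.5-fold lower and none higher. In the Cma1 sub-cluster 12.0% of 6805 genes were higher and 10.8% lower, and in the Xcl1 sub-cluster 12.2% of 7418 genes were higher and 11.1% lower.

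**Figure D3:**
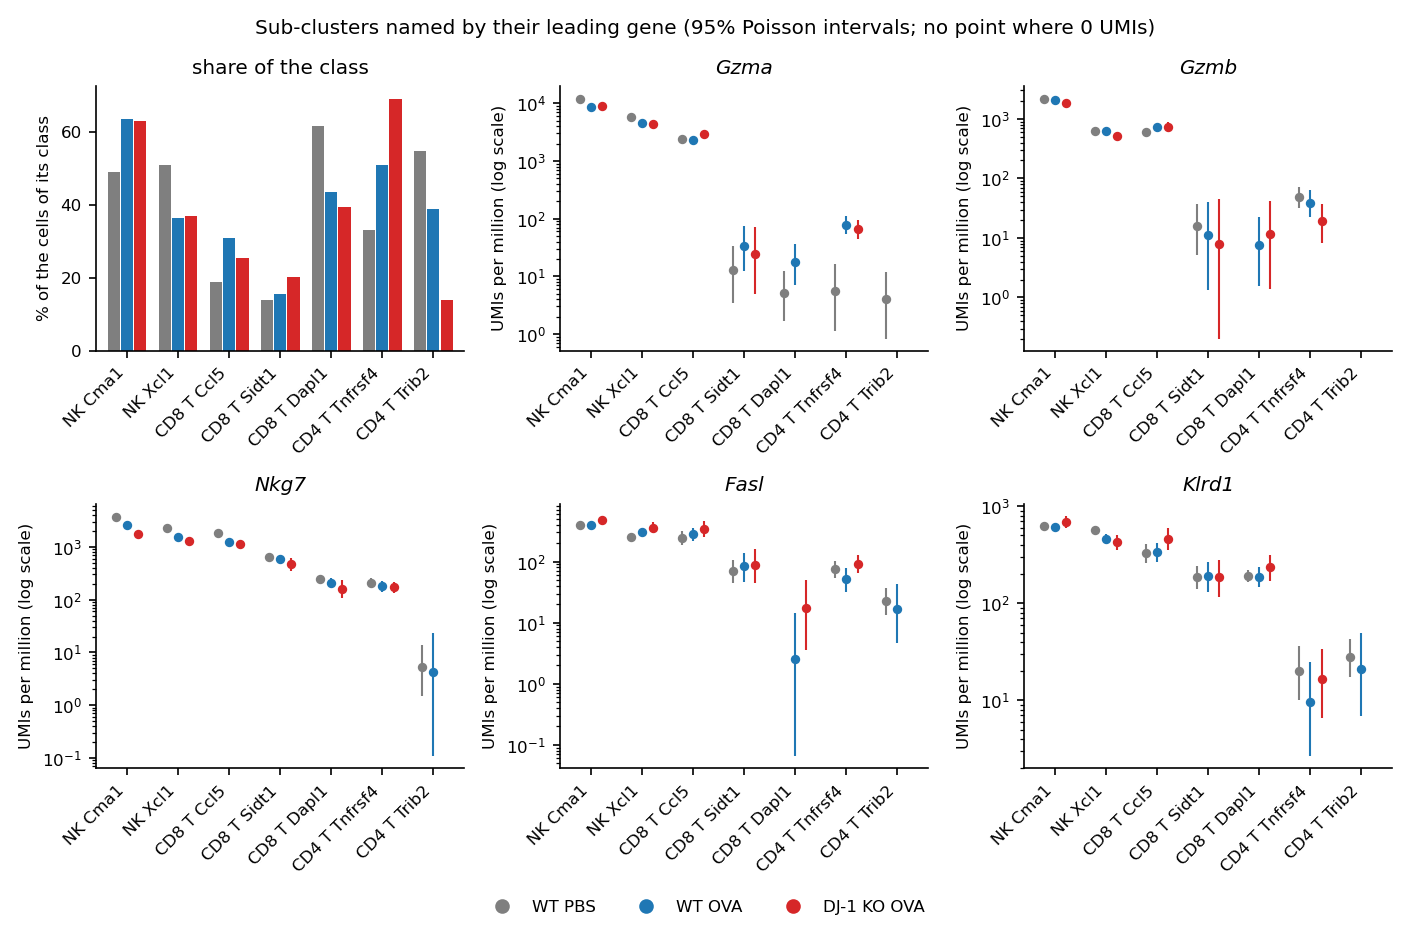
Top left, share of the cells of each class (y axis, percent) in 7 sub-clusters named by their leading gene, with 1 bar per library; other panels, levels of 5 genes in CPM (y axis, log scale) with 95% Poisson intervals. The Cma1 sub-cluster of NK-like cells lies above the Xcl1 sub-cluster in Gzma, Gzmb and Nkg7, and among T-like cells the Ccl5 sub-cluster of CD8 T-like cells carries Gzma at 2305 to 2946 CPM.

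Loss of DJ-1 went with little difference in the NK-like levels of the challenged lung except for Nkg7. Gzma was at 6585 CPM in WT OVA and 6834 CPM in DJ-1 KO OVA, a ratio of 1.04 (0.998 to 1.08), and Prf1 at 159 and 158 CPM, a ratio of 0.991 (0.762 to 1.28). Gzmb was at 1382 and 1199 CPM, a ratio of 0.868 (0.792 to 0.950), and Fasl at 351 and 417 CPM, a ratio of 1.19 (1.01 to 1.40). Klrd1 and Ifng had ratios of 1.04 (0.910 to 1.20) and 0.861 (0.578 to 1.26), both with intervals that hold 1. Gzmk, with 8 UMIs in each library, and Gzmm, with 9 and 10, were too sparse to be counted. None of the 7 counted genes was past 1.5-fold, against 11.7% of 7331 genes higher and 10.2% lower, although Nkg7 passed it at 0.658 with scaling by the median gene ratio. This comparison shares the WT OVA library with the one above, so the 2 are not independent.

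Nkg7 stepped down in NK-like cells from 2791 to 2083 to 1523 CPM, and its knockout over wild-type ratio was 0.731 (0.676 to 0.791). Within the sub-clusters that ratio was 0.672 (0.606 to 0.743) for Cma1 and 0.831 (0.733 to 0.940) for Xcl1. The share of NK-like cells with an Nkg7 UMI was 99.8%, 96.2% and 86.7% as counted. After every cell was thinned to 1000 UMIs it was 89.6%, 85.4% and 73.9%, over 462, 576 and 283 cells. Other transcripts of these cells went both ways. Among lectin receptor genes, Klrc1 rose in the same order of libraries, at 310, 387 and 725 CPM. Klrc2, at 377, 528 and 700 CPM, and Klre1, at 789, 958 and 1101 CPM, rose too. The chemokine gene Ccl5 stepped down, at 13896, 9396 and 5266 CPM. So did Tyrobp, the gene of the signalling adaptor DAP12, at 1942, 1283 and 669 CPM. The depth of the NK-like cells also fell in this order, with median UMI counts of 4135, 1768.5 and 1603. After thinning, the WT OVA over WT PBS ratio of Nkg7 was 0.771. Apart from these thinned Nkg7 values, the part of depth in the values of this paragraph was not tested.

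Few NK-like cells lacked granzymes in any library. After thinning, Gzma and Gzmb were found together in 56.5%, 61.5% and 53.0% of NK-like cells and Gzma without Gzmb in 37.2%, 33.9% and 40.6%. Gzmb without Gzma was found in 0.866%, 0.521% and 0.353% of the cells. No granzyme was found in 5.19%, 4.17% and 5.65% of the thinned cells. No UMI of any of the 9 genes was found in 1.52%, 0.868% and 1.06%. In the unthinned counts a Gzma UMI was present in 96.4%, 97.5% and 93.7% of NK-like cells, against 2.09%, 0.977% and 0.610% of B cell-like cells, whose median depths were 2978, 1293 and 1103.5 UMIs.

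Over all kept cells of the lung the levels of Gzma, Nkg7 and Prf1 stepped down from library to library. Gzma was at 867, 424 and 332 CPM, which gives a ratio of 0.490 (0.478 to 0.501) for WT OVA over WT PBS and 0.782 (0.757 to 0.808) for the knockout over WT OVA. For Nkg7 these ratios were 0.476 and 0.642, and for Prf1 0.470 and 0.658. Fasl differed less, with ratios of 0.757 and 1.09. The whole-lung differences in Gzma were larger than those within NK-like cells, where the ratios were 0.808 and 1.04. NK-like cells made up 12.2%, 10.3% and 6.78% of the kept cells. Whole-lung levels are weighted by UMIs and not by cells. NK-like cells held 2175873 of 24486004, 1221004 of 22930070 and 558718 of 17049942 UMIs of the kept cells. Alveolar type 2-like cells, for comparison, held 4130652, 5494275 and 2712609 UMIs. The thymocyte-like class, at 21.3% of the knockout cells, enters these totals. Without it NK-like cells made up 12.3%, 10.3% and 8.61%, and the whole-lung knockout over WT OVA ratios were 0.806 (0.780 to 0.834) for Gzma, 0.671 for Nkg7, 0.716 for Prf1 and 1.14 for Fasl.

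CD8 T-like cells of the challenged wild-type lung carried more granzyme than those of the PBS lung. Gzma was at 351 CPM in WT PBS (559 UMIs) and 614 CPM in WT OVA (561 UMIs), a ratio of 1.75 (1.55 to 1.97). These UMIs lay in 32 and 75 cells, and 1 cell of WT PBS held 111 of them. Gzmb was at 92.9 and 194 CPM, a ratio of 2.08 (1.67 to 2.61), Gzmk at 27.0 and 67.8 CPM, a ratio of 2.51 (1.68 to 3.80), and Fasl at 54.0 and 89.7 CPM, a ratio of 1.66 (1.21 to 2.28). These 4 were past 1.5-fold higher and none of the 9 was lower, where 17.7% of 7746 genes were higher and 7.91% lower.

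The other products of CD8 T-like cells had intervals that hold 1. Nkg7 was at 564 and 542 CPM, a ratio of 0.961 (0.859 to 1.07), and Klrd1 at 203 and 226 CPM, a ratio of 1.11 (0.931 to 1.33). Gzmm had a ratio of 1.23 (0.772 to 1.96), Ifng of 1.12 (0.557 to 2.17) and Prf1, from 20 and 12 UMIs, of 1.05 (0.466 to 2.25). With cells gated by UMIs of marker genes alone, without clusters, the ratios of Gzma, Gzmb, Gzmk and Fasl were 1.19, 1.40, 1.44 and 1.40, under the 1.5-fold used here. Gzma was also under it without both cells of shared barcodes, at 1.37, and Fasl with scaling by the median gene ratio, at 1.47, and after thinning, at 1.46. Ifng went past it, to 1.66 with cells weighted alike and 2.25 after thinning.

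Nearly all of the Gzma in CD8 T-like cells was in the sub-cluster led by Ccl5, which held 550 of 559, 543 of 561 and 391 of 394 UMIs. That sub-cluster made up 18.8%, 31.0% and 25.4% of CD8 T-like cells (54, 121 and 60 cells). Inside it the WT OVA over WT PBS ratio of Gzma was 0.971 (0.861 to 1.10), with levels of 2373 and 2305 CPM. Gzmb had a ratio of 1.21 (0.963 to 1.53), Gzmk of 1.40 (0.920 to 2.16) and Fasl of 1.14 (0.787 to 1.65), all with intervals that hold 1. These 4 ratios were all nearer 1 than in the whole class, and the share of the sub-cluster was larger in WT OVA than in WT PBS.

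Nkg7 was lower in the WT OVA part of that sub-cluster, at 1235 against 1804 CPM, a ratio of 0.685 (0.588 to 0.797). Klrd1 was spread more widely. It was at 193, 189 and 234 CPM in the sub-cluster led by Dapl1, a gene of resting CD8 T cells, where Gzma was at 18 CPM or less. Gzmm was found both in the Ccl5 sub-cluster, at 90.6, 59.4 and 90.4 CPM, and in the sub-cluster led by Sidt1, at 70.8, 95.3 and 40.3 CPM from 22, 17 and 5 UMIs. Among the genes counted in the Ccl5 sub-cluster, 0 of 8 were past 1.5-fold higher in WT OVA and 1 of 8 lower, Gzmm, whose interval from 0.309 to 1.35 holds 1; 17.0% of 3757 genes were higher there and 12.4% lower.

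After thinning to 1000 UMIs, a Gzma UMI was found in 7.69% (4.88 to 11.4), 17.0% (13.4 to 21.2) and 11.9% (7.99 to 16.8) of CD8 T-like cells. The unthinned shares were 11.1%, 19.2% and 14.4%. Gzmb after thinning was found in 5.94%, 12.3% and 10.6%. No granzyme was found in 87.4%, 74.6% and 82.8% of the thinned cells, and any granzyme together with Prf1 in 0.350%, 0.785% and 0.441%. Perforin was thus close to its limit of detection in CD8 T-like cells, with 20, 12 and 3 UMIs in all.

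CD8 T-like cells of the knockout differed little from those of the challenged wild type. Gzma was at 614 CPM in WT OVA and 776 CPM in DJ-1 KO OVA, a ratio of 1.26 (1.11 to 1.44), which turned to 0.896 when every cell was thinned to 1000 UMIs. Gzmb was at 194 and 199 CPM, a ratio of 1.03 (0.796 to 1.32), and Nkg7 at 542 and 510 CPM, a ratio of 0.941 (0.807 to 1.10). Ifng, with 16 UMIs in each library, was past 1.5-fold higher at 1.80 (0.842 to 3.84), and Gzmk past 1.5-fold lower at 0.638 (0.374 to 1.05), both with intervals that hold 1. Fasl had a ratio of 1.32 (0.928 to 1.86), Klrd1 of 1.16 (0.923 to 1.44) and Gzmm, from 34 and 17 UMIs, an interval from 0.471 to 1.66, while Prf1 with 12 and 3 UMIs was not counted. Ifng fell inside 1.5-fold with cells weighted alike, at 1.21, and after thinning, at 1.496, as did Gzmk with finer clusters, at 0.698, with UMI gates, at 0.872, and after thinning, at 0.729. Fasl went past it, to 1.81, with T-like cells divided by clusters. These were 1 of 8 higher and 1 of 8 lower, where 14.4% of 6655 genes were higher and 8.96% lower.

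Inside the Ccl5 sub-cluster Gzmk was at 242 CPM in WT OVA and 128 CPM in DJ-1 KO OVA, from 57 and 17 UMIs, a ratio of 0.529 (0.289 to 0.923). Gzma had a ratio of 1.28 (1.12 to 1.46) there and Gzmb of 1.03 (0.794 to 1.33). Past 1.5-fold were 2 of 8 genes higher (Ifng and Gzmm, with 12 UMIs each in the knockout and intervals that hold 1) and 1 of 8 lower (Gzmk), beside 17.8% and 12.4% of 3201 genes.

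**Figure D4:**
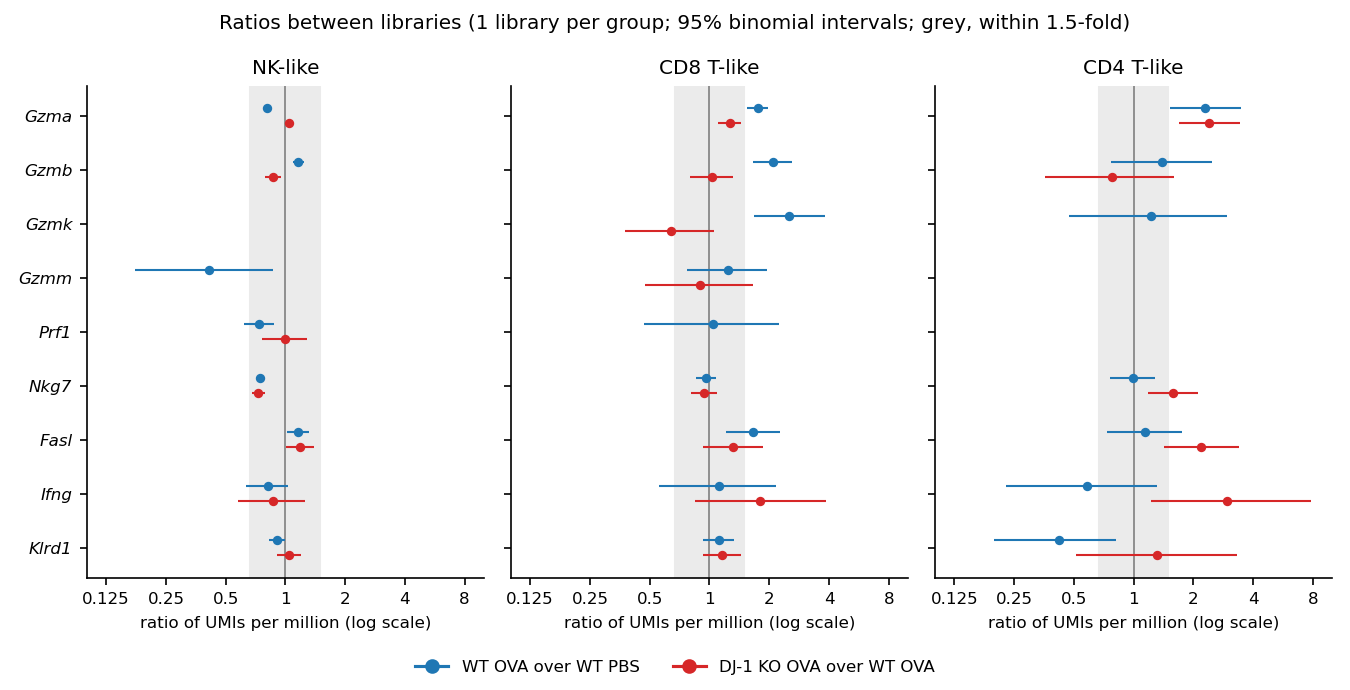
Ratio of CPM between libraries (x axis, log scale) for each gene with at least 20 UMIs over both libraries, in the 3 classes, with 95% binomial intervals and the range within 1.5-fold in grey. In NK-like cells only Gzmm, from few UMIs, lies outside the grey range. In CD8 T-like cells Gzma, Gzmb, Gzmk and Fasl lie above it for WT OVA over WT PBS. For the knockout over WT OVA, Ifng lies above it there and Gzmk below. In CD4 T-like cells Gzma, Nkg7, Fasl and Ifng lie above it for the knockout over WT OVA. For WT OVA over WT PBS, Gzma lies above it there and Klrd1 and Ifng below.

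In CD4 T-like cells the genes were read at low levels, and a handful of cells carried most of the Gzma. Gzma was at 32.7, 74.8 and 180 CPM from 47, 53 and 97 UMIs. Only 8, 5 and 14 cells held them, and the highest cell alone held 40, 26 and 26 UMIs. The counting interval of the WT OVA over WT PBS ratio, 2.29 (1.52 to 3.47), treats UMIs as independent and therefore understates the error of a value that rests on so few cells. Klrd1 was at 36.8, 15.5 and 20.4 CPM, with a WT OVA over WT PBS ratio of 0.422 (0.199 to 0.817), and Ifng at 19.5, 11.3 and 33.3 CPM with a ratio of 0.581 (0.229 to 1.31). Gzmb was at 22.2, 31.1 and 24.1 CPM, with a ratio of 1.40 (0.774 to 2.48) that ran from 0.590 to 4.12 over the alternatives, 1 cell of WT PBS holding 21 of 32 UMIs, and Gzmk at 10.4, 12.7 and 11.1 CPM. Nkg7, from 180 and 88 UMIs, had a ratio of 0.994 (0.761 to 1.29) and Fasl, at 44.5 and 50.8 CPM, of 1.14 (0.738 to 1.75), and Gzmm gave only 3, 1 and 2 UMIs. These were 1 of 7 genes past 1.5-fold higher and 2 of 7 lower, where 18.5% of 7586 genes were higher and 9.32% lower. When T-like cells were divided by their clusters in place of coreceptor UMIs, the ratio of Klrd1 turned to 1.16 and that of Gzma moved to 6.29; with UMI gates alone they were 0.691 and 1.12. After thinning the ratio of Klrd1 was 0.742 and that of Nkg7 1.57, with finer clusters that of Gzma was 1.45, and with T-like cells divided by clusters that of Ifng was 0.674 and that of Gzmk 1.76.

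The knockout CD4 T-like cells carried more of 4 genes than those of WT OVA. Gzma had a ratio of 2.40 (1.70 to 3.42). Fasl was at 50.8 and 111 CPM, a ratio of 2.19 (1.42 to 3.40), and Nkg7 at 124 and 196 CPM, a ratio of 1.58 (1.18 to 2.12). Ifng, from 8 and 18 UMIs, had a ratio of 2.95 (1.22 to 7.84). The other counted genes were Gzmb, at 0.775 (0.359 to 1.61), and Klrd1, at 1.31 (0.516 to 3.34). Thus 4 of 6 counted genes were past 1.5-fold higher and none lower, where 19.3% of 6527 genes were higher and 8.63% lower. The sum of the 9 genes was at 322 CPM in WT OVA and 580 CPM in DJ-1 KO OVA, a ratio of 1.80 (1.51 to 2.14).

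These CD4 T-like ratios rested on how the class was drawn. With T-like cells divided by clusters, the ratio of the sum was 1.08, that of Gzma 1.07, that of Nkg7 1.03, that of Fasl 1.39 and that of Ifng 1.83. Nkg7 was also under 1.5-fold with UMI gates alone, at 1.35, and with scaling by the median gene ratio, at 1.37. The ratio of Klrd1 ran from 0.543 after thinning to 1.73 with cells weighted alike, and that of Gzmb was 0.656 with a doublet score limit of 0.25. The coreceptor rule placed 7, 6 and 24 cells of the Ccl5 sub-cluster among CD4 T-like cells, and those cells held 40, 21 and 69 of the Gzma UMIs. Markers of NK cells summed to 395, 260 and 211 CPM in the CD4 T-like class, with Ncr1 at 0 in each library. Markers of type 2 innate lymphoid cells, some of which helper T cells share, summed to 723, 1587 and 3032 CPM, with 3, 0 and 0 of 10 at 0, and their part in the result was not tested. In the sub-cluster led by Tnfrsf4, a gene of activated and regulatory T cells, which made up 33.2%, 51.0% and 69.2% of the class, the knockout over wild-type ratios were 0.852 (0.494 to 1.46) for Gzma and 0.973 (0.694 to 1.37) for Nkg7. There Fasl had a ratio of 1.81 (1.04 to 3.23), from 21 and 39 UMIs, and was the gene past 1.5-fold higher of 4 counted, beside 17.7% of 5523 genes higher and 9.65% lower; Gzmb, at 0.487 (0.180 to 1.21), was the gene past 1.5-fold lower.

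After thinning, a Gzma UMI was found in 1.35% (0.368 to 3.41), 1.62% (0.529 to 3.75) and 4.85% (2.44 to 8.50) of CD4 T-like cells, against 1.15%, 0.857% and 0.442% of B cell-like cells. The WT PBS and WT OVA shares were within counting error of that background. Prf1 gave 6 UMIs in WT PBS and 0 in both challenged libraries, where a count of 0 allows up to 4.24 and 5.56 CPM. None of the 9 genes was found in 84.8%, 82.8% and 71.4% of the thinned CD4 T-like cells.

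A set of 90 other genes of cytotoxicity, 89 of them in the matrices, was counted beside the 9 (granule matrix and release, inhibitors of granzymes, death ligands and receptors, lectin receptors, cytokine receptors, chemokines and transcription factors). In NK-like cells 5 of 77 were past 1.5-fold higher in the challenged wild type than in the PBS control and 5 lower, where 11.0% of all genes were higher and 9.26% lower, with a median log2 ratio of 0.03 beside 0.04 for all genes. Both shares lie at or below those over all genes. Srgn, the proteoglycan that packs granzymes, was at 678 and 422 CPM, a ratio of 0.622. Serpinb9b, listed among the inhibitors of granzymes, had a ratio of 1.64. The chemokine gene Ccl4 and the receptor gene Cx3cr1 had ratios of 1.71 and 2.06.

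For the knockout against WT OVA in NK-like cells, 5 of 72 were higher and 6 lower, where 11.7% of all genes were higher and 10.2% lower, with a median of 0.15 beside 0.08. Rab27a, which docks granules at the membrane, was at 75.3 and 131 CPM, a ratio of 1.73. Klrc1, which encodes the NKG2A partner of Klrd1, was at 387 and 725 CPM, a ratio of 1.88, while Klrd1 itself had the ratio of 1.04 given above. Ccl5 and Xcl1 had ratios of 0.560 and 0.372.

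CD8 T-like cells of WT OVA were higher than those of WT PBS in 28 of 64 of these genes and lower in 2, where 17.7% of all genes were higher and 7.91% lower, with a median log2 ratio of 0.48 beside 0.13 for all genes. Among them were the transcription factor genes Tbx21 (1.79), Eomes (1.81) and Zeb2 (1.96), which drive effector differentiation, the receptor genes Klrc1 (1.85) and Klre1 (2.48), and Cx3cr1 (2.48) and Ccl4 (2.53). Inside the Ccl5 sub-cluster the counts were 9 of 47 higher and 10 lower, beside 17.0% and 12.4% of all genes, with a median of 0.06 beside 0.06. For the knockout, 7 of 58 were higher and 7 lower in the whole class, beside 14.4% and 8.96% of all genes, with a median of 0.07 beside 0.13. Klrk1, the gene of NKG2D, had a ratio of 0.468 there.

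CD4 T-like cells had 16 of 52 of these genes higher and 5 lower after ovalbumin in the wild type (beside 18.5% and 9.32% of all genes, median 0.22 beside 0.12), and 17 of 49 higher and 4 lower in the knockout than in WT OVA (beside 19.3% and 8.63%, median 0.31 beside 0.17). Those higher in the knockout included the granzyme inhibitors Serpinb9 (2.24) and Serpinb6b (2.56), Ctsw (2.13) and Cst7 (3.28), a cathepsin and a cystatin of cytotoxic granules, and Zeb2 (3.85). The 4 lower genes were 1 of 4 counted inhibitors of granzymes and 3 of 5 counted death ligand and receptor genes. In the Tnfrsf4 sub-cluster alone the knockout counts were 11 of 44 higher and 5 lower, beside 17.7% and 9.65% of all genes, with a median of 0.16 beside 0.12.

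Across 47 groups of at least 50 cells, each a class in a library, the mean of the 9 genes on the log2(CPM + 10) scale was followed most closely by Cd160 (r = 0.945), Tbx21 (r = 0.945), Klrc2 (r = 0.942), Ifitm10 (r = 0.940), Samd3 (r = 0.940), Eomes (r = 0.935), Klre1 (r = 0.932), Ccl5 (r = 0.925), Klrc1 (r = 0.919) and Baiap3 (r = 0.912) among 11003 genes ranked. The groups share 3 libraries and their depth, and Eomes and Klre1 were among the markers that named the NK-like class. Ccl5 was among the markers that named clusters of CD8 T cells. Of the 9 genes themselves, Nkg7 lay closest to their mean at r = 0.978 and Gzmk farthest at r = 0.742. Each of the 9 is part of that mean, which raises its r, so these values do not compare with those of the other genes. Klrc1 and Klrc2 encode the NKG2 chains that pair with the product of Klrd1.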

How the data were processed

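The authors deposited unnormalized counts of UMIs for each gene in each cell barcode. Cell Ranger, STAR and the mm10 build are named in the submitters' processing notes, and the file headers name software version 3.1.0. Barcodes were kept from 200 detected genes upward, where mitochondrial counts did not exceed 20%. Scrublet (expected rate 0.06) removed 57, 162 and 3 barcodes as doublets, so it removed almost none in DJ-1 KO OVA. The smaller cell of 302 and 65 shared barcodes in WT PBS and DJ-1 KO OVA was then left out. Counts scaled to 10000 per cell were clustered with scanpy 1.11.5 and leidenalg 0.10.2 (2000 variable genes without the 9, 30 components, 15 neighbours, resolution 1), and lymphoid clusters were clustered again. Clusters were named from fixed marker lists. CD8 T-like cells had at least 1 UMI of Cd8a or Cd8b1 and none of Cd4, and CD4 T-like cells the reverse. These names are rebuilt and may differ from the study's.

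Counts of a gene were summed over a class and divided by the UMIs of that class (CPM). Levels carry exact Poisson intervals, ratios exact conditional binomial intervals and shares of cells Clopper-Pearson intervals, all at 95% and computed with SciPy 1.17.1; a floor of 3 UMIs stands for a count of 0. A gene was counted in a comparison with at least 20 UMIs over both libraries and called past 1.5-fold. No p-value was computed. The computation was tested on simulated data with known ratios.

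The named genes are the 9, the cytotoxicity lists, and the 10 genes most like the mean of the 9 in log2(CPM + 10) by Pearson r, among genes with at least 200 UMIs. Genes, lists and classes were chosen with earlier results of these data known. Scaling by the median gene ratio in place of the total shifted log2 ratios by 0.08 and 0.15 in NK-like, 0.17 and 0.21 in CD8 T-like and 0.16 and 0.21 in CD4 T-like cells (WT OVA over WT PBS, then DJ-1 KO OVA over WT OVA). Alternatives varied shared barcodes, filters, doublets, clustering, class rules, scaling, weighting, depth, fold and minimum; 4 of them (T-like cells divided by clusters, a doublet score limit of 0.25, partner cells of shared barcodes taken out, and thymocyte-like cells left out of whole-lung totals) were chosen after seeing the data. Gene positions came from the RefSeq annotation of GRCm38, matched by symbol for 9 of 9 genes.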

Additional observations from a re-analysis of the deposited data

Results flagged for a closer look

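The difference in Gzma between WT OVA and WT PBS went in opposite directions in the classes. The ratio was 1.75 in CD8 T-like cells and 2.29 in CD4 T-like cells, against 0.808 in NK-like cells. Nkg7 did so for the knockout over WT OVA, with a ratio of 1.58 in CD4 T-like cells against 0.731 in NK-like cells. Some of these values moved with the cells chosen. Inside the Ccl5 sub-cluster, which holds nearly all Gzma of CD8 T-like cells, the Gzma ratio was 0.971, and in CD4 T-like cells it ran from 1.12 to 6.29 over the alternatives. The CD4 T-like ratio of Nkg7 was 1.03 with T-like cells divided by clusters. With 1 library per group, whether the classes differ in these ratios was not tested.

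Outside the 3 classes, some levels lay above those of B cell-like cells. In T-like cells without a coreceptor UMI, Gzma was at 153 CPM and Fasl at 102 CPM in DJ-1 KO OVA, and Gzmk was at 19.3 CPM in WT OVA. In WT OVA, Gzma was at 54.7 CPM in classical monocyte-like cells, 41.7 CPM in mesothelial-like cells and 32.8 CPM in neutrophil-like cells. In each of these last 3 a single cell held 20 to 24 of the 31 to 34 UMIs. Gzmb was at 16.2 CPM in alveolar type 2-like cells of DJ-1 KO OVA, where 22 of 44 UMIs were in 1 cell.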

How the results depend on the processing

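Each difference rests on 1 library per group, so leaving out a replicate was not possible. No paired analysis was possible because each group has 1 library. Of 726 ratios of single genes over 14 alternatives, 656 stayed within their counting interval, 67 moved and 3 were labelled reversed. Those 3 were Gzmk in NK-like cells (0.891, inside its interval, and 0.509) and Klrd1 in CD4 T-like cells (1.16). They are not all the ratios that crossed 1. Gzma in CD8 T-like cells, knockout over WT OVA, went from 1.26 to 0.896 after thinning. Gzmb in CD4 T-like cells, WT OVA over WT PBS, went from 1.40 to 0.590 with UMI gates. Of 81 shares of cells, 48 moved when cells were thinned to 500 in place of 1000 UMIs. Such a share is expected to fall with fewer UMIs per cell, so this count does not show whether differences between libraries hold. Of the 10 genes most like the mean of the 9, 9 were the same with 1 in place of 10 added to CPM. All 18 whole-lung ratios stayed within their counting interval without thymocyte-like cells. CD4 T-like values and counts under 20 UMIs are the least secure.

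The log2 ratio of the sum of the 9 genes, DJ-1 KO OVA over WT OVA, was 0.85 in CD4 T-like cells and moved to 0.11 with T-like cells divided by clusters and 1.15 with cells weighted alike. In CD8 T-like cells it was 0.14 and became -0.074 with scaling by the median gene ratio, -0.11 with cells weighted alike and -0.14 after thinning. In NK-like cells it was -0.05, and became -0.10 without both cells of shared barcodes, 0.11 with UMI gates alone and -0.20 with scaling by the median gene ratio. For WT OVA over WT PBS, the CD4 T-like value of 0.11 became -0.35 with UMI gates and 0.46 after thinning. The CD8 T-like value of 0.42 became 0.27 without both cells of shared barcodes, 0.076 with UMI gates, 0.24 with scaling by the median gene ratio, 0.58 with cells weighted alike and 0.55 after thinning. The NK-like value of -0.26 became -0.41 with UMI gates and -0.33 with scaling by the median gene ratio. The log2 ratio of Gzmk in NK-like cells, DJ-1 KO OVA over WT OVA, rests on 8 UMIs in each library and turned from 1.13 to -0.17 without cells with markers of the other lineage and to -0.97 after thinning. That of Klrd1 in CD4 T-like cells, WT OVA over WT PBS, turned from -1.25 to 0.21 with T-like cells divided by clusters. The cause of these moves was not tested.

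With 2-fold in place of 1.5-fold, 2 in place of 4 of the 9 genes were higher in CD8 T-like cells for WT OVA over WT PBS, 0 in place of 1 were higher and 0 in place of 1 lower for the knockout over WT OVA, and 1 in place of 2 were lower in CD4 T-like cells for WT OVA over WT PBS. The counts of the other cytotoxicity genes also moved with the minimum of UMIs, since it sets how many genes are counted. In NK-like cells, DJ-1 KO OVA over WT OVA, 8 were higher with no minimum and 3 lower with a minimum of 100 UMIs. In CD8 T-like cells, 14 were higher with 100 UMIs and 7 lower with no minimum for WT OVA over WT PBS, and for the knockout over WT OVA 2 were higher with 100 UMIs, 12 higher with no minimum and 2 lower with 100 UMIs. In CD4 T-like cells, WT OVA over WT PBS, 4 were higher and 2 lower with 100 UMIs, and 25 higher and 10 lower with no minimum. For the knockout over WT OVA there, 9 were higher and 0 lower with 100 UMIs, and 8 lower with no minimum.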

Other observations

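Cycling lymphoid cells, which were led by genes of the cell cycle such as Mki67 and Top2a and numbered 41, 57 and 93, held 9.03%, 4.07% and 9.51% of all Gzma UMIs. Gzma was at 3232, 722 and 811 CPM there, Nkg7 at 1034, 343 and 277 CPM, and Gzmb at 460, 265 and 122 CPM. The ratio of WT OVA to WT PBS was 0.224 (0.200 to 0.249) for Gzma, and the knockout over WT OVA ratio of Gzmb was 0.462 (0.347 to 0.610). A UMI of the NK genes Ncr1 or Klrb1c was found in 19, 7 and 6 of these cells and a UMI of Cd3d, Cd3e or Cd3g in 23, 49 and 82, so the mix of NK and T cells differed between the libraries. Its part in the ratios was not tested. Gzmk was at 70.8, 36.5 and 34.7 CPM in this class, above its level in NK-like cells in each library.

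Gamma delta T-like cells, led by Cd163l1 and Il17a, carried little of the programme. The 9 genes together were at 120, 57.2 and 38.3 CPM there, from 61, 17 and 7 UMIs. Thymocyte-like cells of the knockout held 338 Gzma UMIs in 104 of 944 cells, at 222 CPM. Of these, 182 UMIs lay in a sub-cluster of 56 cells.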
